A study of Mus musculus with 8 samples.

Results

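RNA polymerase II is the enzyme that transcribes protein-coding genes. Its subunit genes Polr2a to Polr2j, 10 in number, were examined in mouse leukaemias that do or do not lack one copy of a chromosome 11 segment holding Polr2a. The members were the rows whose gene symbol is on a fixed list of 10, and each symbol matched 1 row of the 18860 genes measured. Polr2a lies inside the deleted 11B3 interval and the other 9 genes lie elsewhere (Polr2b and Polr2j on chromosome 5, Polr2c on 8, Polr2d on 18, Polr2e on 10, Polr2f on 15, Polr2g on 19, Polr2h on 16 and Polr2i on 7). The question was whether the other subunits follow the lower level of Polr2a in the 11B3-deleted libraries.

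The leukaemias arose in C57BL/6 mice, cells were collected from marrow once the animals were moribund, and total RNA was sequenced from 4 lines per genotype. The 11B3-deleted group (11B3fl/p53fl; shNf1; shMll3; Vav1-Cre) carries a floxed 11B3 interval, which contains Trp53, on one chromosome 11 and a floxed Trp53 allele on the other. The p53-loss-only group (p53fl/fl; shNf1; shMll3; Vav1-Cre) carries floxed Trp53 on both chromosomes and keeps the rest of the interval. Both groups carry hairpins against Nf1, a negative regulator of Ras, and Mll3, a histone methyltransferase, and in both Cre is driven by the blood cell promoter of Vav1. Whether the lines of a genotype come from different animals is not stated, and p-values speak only of the spread among these 8 libraries, which may be technical.

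The largest subunit, Rpb1, is encoded by Polr2a, and Rpb2, encoded by Polr2b, forms the active centre with it. Rpb1 ends in a long tail of repeated residues that is phosphorylated during initiation and elongation. Polr2c and Polr2j encode the pair of proteins on which the enzyme is assembled, Polr2d and Polr2g encode a detachable stalk, and Polr2i encodes a subunit linked to accurate start choice and RNA cleavage. Polr2e, Polr2f and Polr2h encode subunits that RNA polymerases I and III use as well. In yeast and in mammalian cells the subunits are brought together in the cytoplasm before the enzyme enters the nucleus.

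The start region of Polr2a is printed because 1 copy of it lies in the deleted segment, and that of Polr2b, the other catalytic subunit, because its gene is intact in both groups. Each window holds 300 bases (250 before and 50 after the start), is taken from RefSeq on build GRCm38.p6 and reads 5′ to 3′ along the gene. Capitals mark matches, on either strand, to the 5 motifs whose letters are given after the sequences, and none of the matches overlap in these windows.
Polr2a, chr11:69758584-69758883, minus strand: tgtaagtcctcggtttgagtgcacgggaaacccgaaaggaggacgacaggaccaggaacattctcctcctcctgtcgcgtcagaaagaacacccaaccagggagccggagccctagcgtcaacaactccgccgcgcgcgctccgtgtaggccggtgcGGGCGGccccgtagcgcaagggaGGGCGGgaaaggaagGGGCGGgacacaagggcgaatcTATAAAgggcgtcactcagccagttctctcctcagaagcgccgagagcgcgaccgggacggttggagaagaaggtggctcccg
Polr2b, chr5:77310234-77310533, plus strand: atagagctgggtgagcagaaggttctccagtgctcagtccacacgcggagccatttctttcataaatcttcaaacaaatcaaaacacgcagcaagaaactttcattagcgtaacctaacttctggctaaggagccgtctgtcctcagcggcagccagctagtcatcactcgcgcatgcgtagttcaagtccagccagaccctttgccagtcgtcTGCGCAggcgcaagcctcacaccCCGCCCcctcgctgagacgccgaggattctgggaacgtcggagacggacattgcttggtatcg
The Polr2a window held 3 GC boxes and 1 TATA box that begins 33 bases before the start, and its GC content was 63.7%. The Polr2b window held 1 GC box, 1 match to TGCGCA, which is only part of an NRF1 site, and no TATA box, at 54.7% GC. The RefSeq table has 32851 windows, with a median GC content of 52.7%, and 9 of them belong to 8 of the 10 members. The GC box was searched as GGGCGG and stood in 7 of the 9 member windows and in 35.7% of all windows. The TATA box was searched as TATAAA and stood in 2 of the 9, those of Polr2a and Polr2c, and in 13.6% of all windows. Of the NRF1 site only the part TGCGCA was searched, and it stood in 3 of the 9 and in 7.76% of all windows. Longer forms of the NRF1 site were not searched. The ETS core was searched as CTTCCGG and stood in 3 of the 9 and in 8.86% of all windows. The last motif, CCAAT, stood in 3 of the 9 and in 37.4% of all windows. Polr2d and Polr2g are named only. These matches describe the letters and were not tested against the expression values.

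Polr2a was lower in all 4 11B3-deleted libraries than in any p53-loss-only library. The 11B3-deleted libraries, replicates 1 to 4, had Polr2a values of 8076, 6485, 10862 and 8121, and the p53-loss-only libraries, in the same order of replicates, had 15321, 17107, 15523 and 14589. These are the deposited values, read counts scaled for library size with 1 added, and they rest on 6025 to 18646 reads of Polr2a per library. The groups did not overlap: the highest 11B3-deleted library, replicate 3, lay below the lowest p53-loss-only library, replicate 4. The 11B3-deleted mean was 8386 ± 1818 and the p53-loss-only mean 15635 ± 1060 (SD, n = 4 each). On the log2 scale the difference was -0.92 (SE 0.17, 95% interval -1.32 to -0.53), or 52.8% of the p53-loss-only level (95% interval 40.2% to 69.4%). An exact permutation test gave p = 0.0286, the smallest that 70 arrangements allow. In the limma fit over all 14679 genes tested the difference did not pass (limma adjusted p = 0.434, Benjamini-Hochberg), and neither did it with edgeR on the recovered reads (edgeR adjusted p = 0.750), whereas it passed with DESeq2 (log2 difference -0.90, DESeq2 adjusted p = 0.00452). Over all genes the share called was 0.0136% with limma, all of them lower, 0.00681% with edgeR, also lower, and 0.434% of 13350 genes with DESeq2 (0.375% lower and 0.0599% higher). In bulk RNA, fewer cells of a type and less RNA per cell cannot be told apart.

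**Figure D1:**
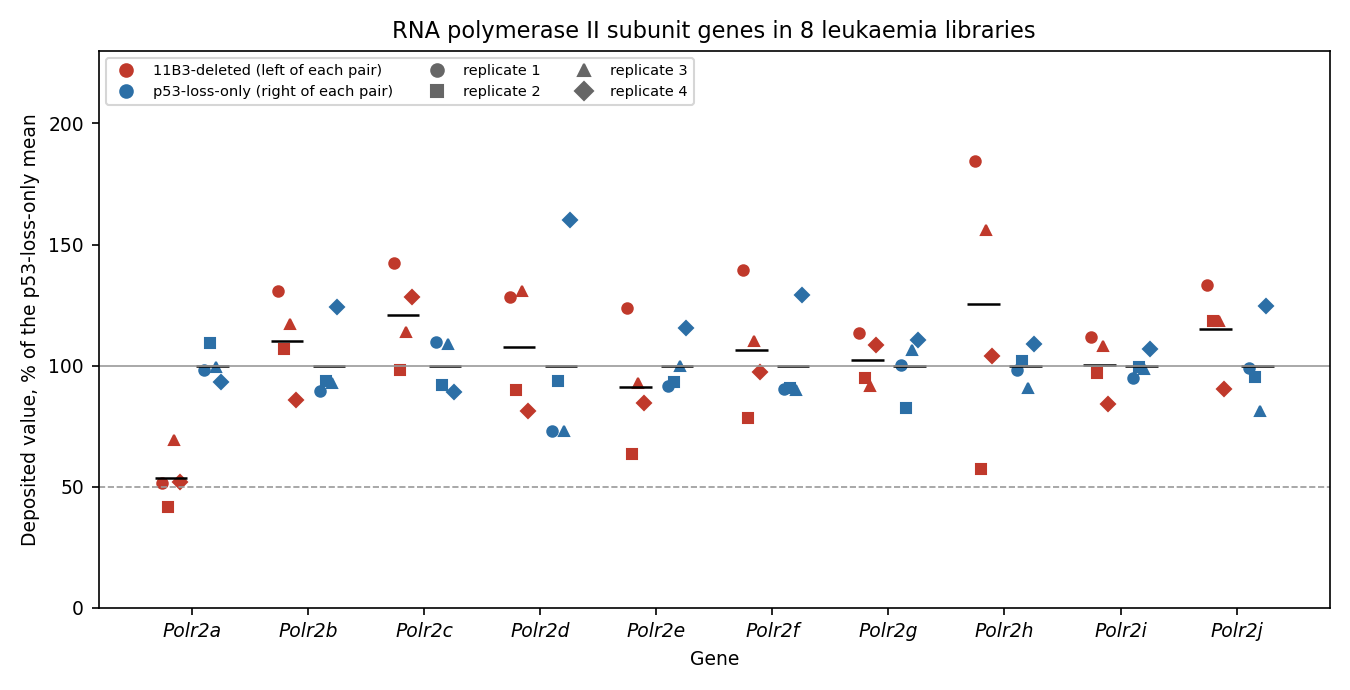
Deposited value of each subunit gene in each library (y axis, percent of that gene's p53-loss-only mean) for 11B3-deleted (red) and p53-loss-only (blue) libraries, with the group mean as a bar and lines at 100 and 50 percent. Polr2a is the only one of the 10 genes whose groups do not overlap.

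Polr2b did not have the lower level seen for Polr2a. The 4 11B3-deleted libraries, here and in what follows in the order of their replicate numbers, read 6627, 5417, 5950 and 4355 for Polr2b, and the p53-loss-only libraries read 4537, 4760, 4705 and 6292. The groups overlapped, with 3 of the 4 11B3-deleted libraries above 3 of the 4 p53-loss-only libraries. The log2 difference was 0.14 (SE 0.18, 95% interval -0.27 to 0.54, limma adjusted p = 0.996), an interval that includes 0 and ends above the -0.92 of Polr2a.

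Both genes of the assembly pair had a higher mean in the 11B3-deleted group, and neither passed. For Polr2c the 11B3-deleted values were 1323, 914, 1059 and 1192, and the p53-loss-only values 1021, 853, 1013 and 829.5. Its log2 difference of 0.27 (SE 0.18, 95% interval -0.14 to 0.67) did not pass (limma adjusted p = 0.996). For Polr2j they were 2083.5, 1849, 1847.5 and 1412 in 11B3-deleted cells, and 1545, 1487, 1267.5 and 1949 in p53-loss-only cells. Its log2 difference was 0.21 (SE 0.19), and in both genes the groups overlapped.

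The stalk genes varied in different ways. Polr2d read 1484, 1043, 1515 and 942 in 11B3-deleted cells, and 846, 1085, 845 and 1856 in p53-loss-only cells, so its highest and its lowest value both fell in the p53-loss-only group. Its log2 difference was 0.15 (SE 0.29, 95% interval -0.51 to 0.82). Polr2g was steadier, at 1411, 1179, 1136 and 1347 in 11B3-deleted cells, and 1247, 1024, 1321 and 1375 in p53-loss-only cells (log2 difference 0.03, SE 0.17), with overlapping groups. The highest value of Polr2g was 1.24 times the lowest within the 11B3-deleted group and 1.34 times within the p53-loss-only group.

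Polr2i read 617, 534, 595 and 465 in 11B3-deleted cells, and 522, 549, 545 and 589.9 in p53-loss-only cells. The 11B3-deleted mean was 553 ± 68.2 and the p53-loss-only mean 551 ± 28.1 (SD, n = 4 each), a log2 difference of -0.0038 with a 95% interval of -0.42 to 0.41. It was the member with the difference nearest 0.

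Of the subunits shared with RNA polymerases I and III, Polr2e had the only log2 difference below -0.1 besides Polr2a. Its values were 2682, 1376, 2004.5 and 1834 in 11B3-deleted cells, and 1979, 2017, 2160.0 and 2499 in p53-loss-only cells (log2 difference -0.17, SE 0.21, 95% interval -0.65 to 0.31). Polr2f had 1615, 907, 1276 and 1125 in 11B3-deleted cells, against 1046, 1050.5, 1039 and 1492 in p53-loss-only cells (log2 difference 0.08, SE 0.22). Polr2h spread most, with 1279, 397, 1082 and 722 in 11B3-deleted cells, against 681, 708, 629 and 757 in p53-loss-only cells (log2 difference 0.20, SE 0.34). Within the 11B3-deleted group the highest Polr2h value was 3.22 times the lowest. In all 3 genes the groups overlapped.

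Of the 9 subunits coded elsewhere, 7 had a higher and 2 a lower mean log2 value in the 11B3-deleted group, and their log2 differences ran from -0.17 to 0.27 with a median of 0.14. Over all genes tested the median was 0.01, 51.6% of genes had a higher mean and 48.4% a lower one. None of the 9 was called with limma, edgeR or DESeq2, and none reached an unadjusted limma p of 0.05. That threshold was passed by 3.56% of all genes, 2.38% lower and 1.18% higher. For every one of the 9 the lower bound of the 95% interval lay above -0.92, the lowest being -0.65 for Polr2e, while upper bounds reached 0.98 for Polr2h. The interval of Polr2a itself, -1.32 to -0.53, overlapped those of Polr2e and Polr2h. Groups were separate in 0 of the 9, where 2.15% of all genes were separate, 1.23% with lower and 0.913% with higher 11B3-deleted values. Polr2k and Polr2l, which encode the remaining subunits, both shared with the other polymerases, and Polr2m, which encodes the polymerase-bound protein Gdown1, had log2 differences of 0.07 (SE 0.31), 0.15 (SE 0.25) and 0.20 (SE 0.21), also with overlapping groups. Polr2k averaged 268 ± 51.9 in 11B3-deleted and 263 ± 101 in p53-loss-only cells, Polr2l 313 ± 71.5 in 11B3-deleted and 277 ± 35.6 in p53-loss-only cells, and Polr2m 5095 ± 984 in 11B3-deleted and 4473 ± 1216 in p53-loss-only cells (SD, n = 4 each).

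**Figure D2:**
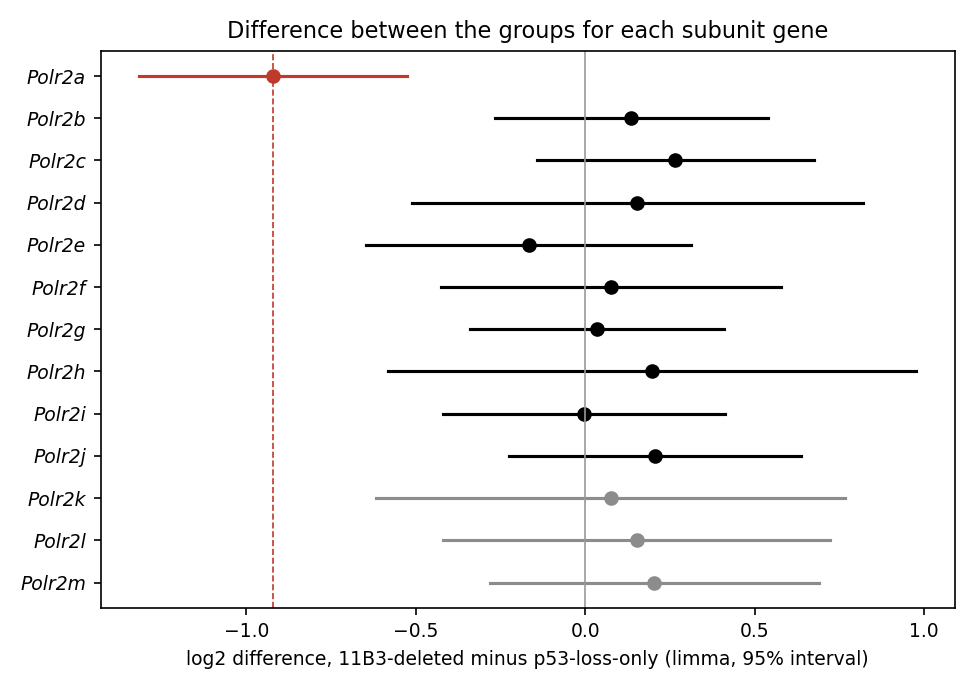
Log2 difference between 11B3-deleted and p53-loss-only libraries (points, x axis) with its 95% interval from limma (lines) for the 10 subunit genes and, in grey, Polr2k, Polr2l and Polr2m. The dashed line marks the -0.92 of Polr2a, which lies outside the intervals of the 12 other genes. The interval of Polr2a itself, -1.32 to -0.53, overlaps those of Polr2e, Polr2h and Polr2k.

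The imbalance within a library was measured as the log2 value of Polr2a minus that of each other subunit, which hardly depends on how libraries were scaled. Polr2a relative to Polr2b gave log2 ratios of 0.29, 0.26, 0.87 and 0.90 in 11B3-deleted cells, against 1.76, 1.85, 1.72 and 1.21 in p53-loss-only cells. No 11B3-deleted library reached the lowest p53-loss-only library, and the difference of -1.06 means that the ratio stood at 48.1% of its p53-loss-only level. Across the 9 ratios the differences ran from -0.75 for Polr2e to -1.19 for Polr2c. In 8 of the 9 the groups did not overlap, and each gave p = 0.0286 in a two-sided exact permutation test, or adjusted p = 0.0321 over the 9 ratios. The exception was Polr2d, with a difference of -1.07 (exact permutation p = 0.0571, adjusted p = 0.0571), whose ratio in p53-loss-only replicate 4 was 2.98 and overlapped the 11B3-deleted range up to 3.11. All 9 ratios share Polr2a and are not independent of each other. Leaving out 1 library left 8 or 9 of the 9 ratios without overlap in every case and kept every difference negative. The exact permutation calls ended without 11B3-deleted replicate 1 or 2 or p53-loss-only replicate 1, 2 or 3, at a smallest adjusted p of 0.0514. With each of the other 3 libraries left out, 7 ratios were called. With 1 library left out the test has 35 arrangements and a smallest p of 0.0286. Without 11B3-deleted replicate 2, the ratio to Polr2b gave an exact permutation p of 0.0571 although its groups did not overlap.

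**Figure D3:**
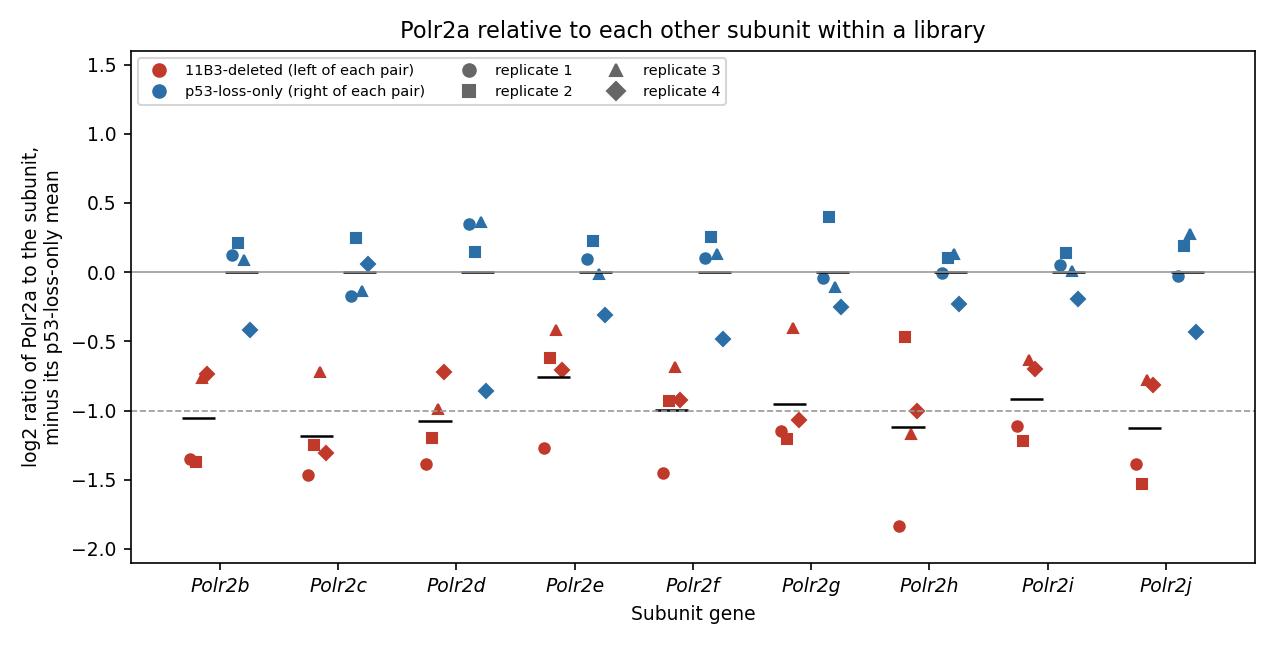
Log2 ratio of Polr2a to each other subunit gene in each library, with the p53-loss-only mean of that ratio set to 0 (y axis), for 11B3-deleted (red) and p53-loss-only (blue) libraries; bars are group means. The groups are separate for every subunit except Polr2d.

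Levels of different genes were set side by side as scaled reads per 1000 bases of the principal GENCODE transcript. In the 11B3-deleted libraries Polr2a averaged 1244 ± 270 and ranked 6 of 10, next to Polr2b at 1348 ± 231 and Polr2d at 1226 ± 292 (SD, n = 4 each). In the p53-loss-only libraries Polr2a averaged 2320 ± 157 per 1000 bases and ranked 2 of 10, between Polr2j at 2417 ± 440 and Polr2e at 1884 ± 206, whereas Polr2b averaged 1224 ± 197 (SD, n = 4 each). Polr2a and Polr2j were within their spread of each other in p53-loss-only libraries, as were Polr2a, Polr2b and Polr2d in 11B3-deleted libraries. Among the 10 members, the lowest levels per length were those of Polr2i and Polr2c. They stood at 674 ± 83.3 and 710 ± 111 in 11B3-deleted libraries and 672 ± 34.3 and 587 ± 64.4 in p53-loss-only libraries. With all annotated exons of a gene as its length, Polr2a ranked 4 in 11B3-deleted and 1 in p53-loss-only libraries. The lengths come from another build than the authors' mm9, and transcript use in these cells was not measured.

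In each library the level of Polr2a lay close to that of the other genes of its chromosomal segment. With the mean of the p53-loss-only group set to 0, Polr2a had log2 levels of -0.95, -1.27, -0.52 and -0.94 in 11B3-deleted cells, and the median of 71 other tested genes between Sco1 and Alox12 was -0.99, -1.17, -0.67 and -0.98. Replicate 3 was the least reduced and replicate 2 the most reduced on both measures. In p53-loss-only cells Polr2a had -0.03, 0.13, -0.01 and -0.10 and the interval median between -0.06 and 0.06. Over the groups, the median log2 difference of the 71 genes was -0.93 (quartiles -1.23 and -0.78), 38 of them had a lower difference than Polr2a, and 8 had a smaller limma p. In 11B3-deleted replicate 3 the 6 B cell markers (Cd79a, Cd79b, Ebf1, Vpreb1, Pax5 and Blk) summed to 32332, against 337 to 998 in the other 11B3-deleted libraries and 174 to 1874 in p53-loss-only libraries. Their part in the higher Polr2a level of that library was not tested. Without it the log2 difference of Polr2a was -1.05 (limma adjusted p = 0.472).

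The other subunits had their own order across libraries. The median of the 9, on the same scale, read 0.43, -0.07, 0.20 and -0.13 in 11B3-deleted cells, against -0.08, -0.08, -0.10 and 0.21 in p53-loss-only cells. Of the 9 genes, 8 had their highest value in 11B3-deleted replicate 1, and Polr2d had its highest in p53-loss-only replicate 4, where Polr2a was lowest of its group. Without 11B3-deleted replicate 1 the median log2 difference of the 9 was -0.02, and it ran from 0.04 to 0.23 when any other library was left out. Without that replicate Polr2b was at 0.048, Polr2c at 0.18, Polr2d at 0.059 and Polr2j at 0.13. Below 0 were Polr2e at -0.33, Polr2f at -0.066, Polr2g at -0.019, Polr2h at -0.033 and Polr2i at -0.060. Markers of red cell precursors (Hba-a1, Hbb-b1, Car1, Klf1, Alas2 and Epor) summed to 131229 in 11B3-deleted replicate 1, against 5243 to 27980.0 in the other 11B3-deleted libraries and 553 to 24098 in p53-loss-only libraries. In p53-loss-only replicate 4 the same sum was 1396. Most of the sum in 11B3-deleted replicate 1 was Car1, at 118944. Klf1 (3755) and Epor (3895.5) were also highest in that library. Hba-a1 (1497), Hbb-b1 (2636) and Alas2 (509) were not, and were highest in p53-loss-only replicate 2 (4710, 6528 and 1462). The pan-leukocyte gene Ptprc was detected in every library and was lowest in 11B3-deleted replicate 1, at 7822, against 8002 to 16614 in the other 11B3-deleted libraries and 10389 to 16981 in p53-loss-only libraries. The part of these cells in the subunit levels was not tested.

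**Figure D4:**
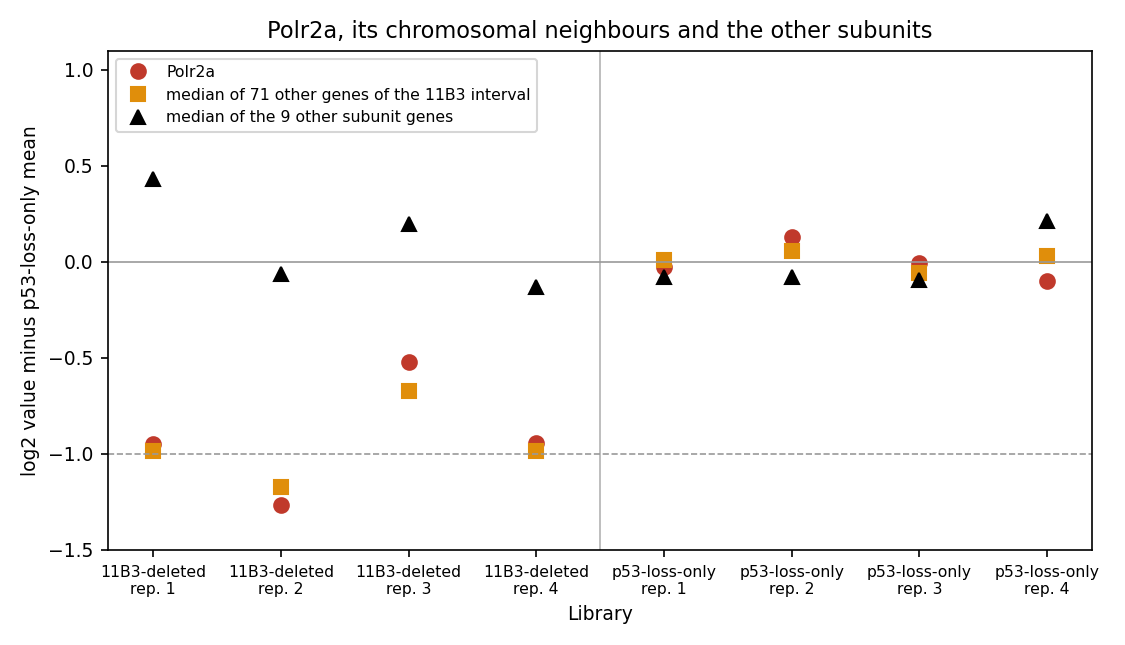
Log2 value minus the p53-loss-only mean (y axis) in each library (x axis) for Polr2a (circles), the median of 71 other genes of the 11B3 interval (squares) and the median of the 9 other subunit genes (triangles). In the 4 11B3-deleted libraries Polr2a lies within 0.15 of the interval median, and the other subunits lie between -0.13 and 0.43.

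Marker sums of the other cell types overlapped between the groups. The 8 granulocyte markers (Mpo, Elane, Ctsg, S100a8, S100a9, Ltf, Camp and Ngp) summed to 155221 to 676580 in 11B3-deleted and 220139 to 418627 in p53-loss-only libraries, the highest of the marker sums in every library. The 6 monocyte and macrophage markers summed to 41795 to 78273 in 11B3-deleted and 45585 to 139025 in p53-loss-only libraries. Among these 6, 2 did not overlap, Cx3cr1 and Cd68, each lower in 11B3-deleted libraries. Over all genes tested, 1.23% were separate in that direction. Cd68 is itself an interval gene. Markers of T and NK cells summed to 207 to 898 in 11B3-deleted and 575 to 841 in p53-loss-only libraries. Those of megakaryocytes summed to 159.9 to 1924 in 11B3-deleted and 211 to 1248 in p53-loss-only libraries, and those of stroma and endothelium to 2538 to 15011 in 11B3-deleted and 5203 to 7262 in p53-loss-only libraries. No marker was at 0 reads in every library.

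The 2 tested genes on either side of Polr2a in gene order each had a lower mean log2 value in the 11B3-deleted group. Zbtb4, a zinc finger repressor and the nearest tested gene on one side, stood at 274 ± 13.2 in 11B3-deleted and 613 ± 232 in p53-loss-only libraries (SD, n = 4 each; log2 difference -1.07, SE 0.32, limma adjusted p = 0.996) without overlap, though none of these neighbours passed with limma or DESeq2. Chrnb1, an acetylcholine receptor subunit, had a difference of -0.82 (SE 0.92) with a 95% interval that includes 0, and it ran from -1.36 without p53-loss-only replicate 3 to -0.33 without p53-loss-only replicate 4. On the other side Tnfsf13, the cytokine APRIL, differed by -1.22 (SE 0.46) and BC096441, whose annotated span covers Tnfsf13 on the same strand, by -1.35 (SE 0.72), with a range of -1.88 to -0.92 over the libraries left out. The 3 genes other than Zbtb4 overlapped between groups and had wider errors than Polr2a.

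The genes whose log2 profile over the 8 libraries lay nearest to that of Polr2a, by root mean square difference after centring, were Ctdnep1 (0.13), Senp3 (0.13), Gpr179 (0.14), Fxr2 (0.16) and Neurl4 (0.16). All but Gpr179 are interval genes, and 15 of the 20 nearest genes lie in the interval, which holds 73 of the 14679 genes tested. Genes picked for profiles close to that of Polr2a, on any chromosome, are lower in 11B3-deleted libraries largely by that choice. Ctdnep1, a nuclear envelope phosphatase, read 1666, 1404, 2088 and 1608 in 11B3-deleted cells, against 3035, 2806, 3083 and 3255 in p53-loss-only cells, without overlap. Gpr179, an orphan receptor gene elsewhere on chromosome 11, had 24 to 93 reads per library. The nearest genes on other chromosomes were Dnajb5 (0.23), Prmt2 (0.24) and Hfe (0.25), at ranks 22, 25 and 28. Hfe, an iron regulator, stood at 313 ± 33.9 in 11B3-deleted and 518 ± 41.1 in p53-loss-only libraries (SD, n = 4 each) and passed with DESeq2 (DESeq2 adjusted p = 0.0065) but not with limma (limma adjusted p = 0.996). Among the subunits the nearest was Polr2e, at rank 860 with a root mean square difference of 0.46, followed by Polr2i at rank 1674. Polr2d was the farthest, at rank 7703.

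The rest of the transcription machinery was described with the same fit. Of 141 genes on 9 related lists 140 were tested, of which 102 had a higher and 38 a lower mean, with a median log2 difference of 0.13, against 0.01 over all genes. Without 11B3-deleted replicate 1, the library with the high Car1 value, 85 were higher and 55 lower with a median of 0.03. The medians of the RNA polymerase III subunits and of the assembly factors then stood at -0.018 and -0.016. Some named genes of these lists moved by more than 1.5 times without that library. Among them are Polr2k (-0.054), Polr2l (0.021), Polr2m (0.088), Polr3e (0.012), Polr3d (0.091) and Polr3f (0.22). The rest are Polr1d (0.12), Cd3eap (0.16), Cdk7 (0.29), Cdc73 (0.21), Gtf2a2 (0.20), C80913 (0.074) and Ell2 (0.52). With all 8 libraries none of the 140 was called with limma, DESeq2, edgeR or limma voom, and 1 gene, Med11, was lower at an unadjusted limma p under 0.05, a share below the 2.38% of all genes. The groups were separate in 8 of the 140 (2.15% of all genes), 7 higher (0.913% of all genes) and 1 lower (1.23% of all genes). Among the RNA polymerase I subunits, 7 of 8 had a higher mean (median 0.19). The 3 with the smallest p were Twistnb (0.36, SE 0.19), Polr1d (0.24, SE 0.17) and Cd3eap (0.31, SE 0.24). Among the RNA polymerase III subunits, 7 of 11 had a higher mean (median 0.20), with Polr3f at 0.37 (SE 0.28), Polr3d at 0.26 (SE 0.23) and Polr3e at 0.20 (SE 0.21). Polrmt, the polymerase of mitochondria, differed by -0.26 (SE 0.26).

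General transcription factors, which place the polymerase at start sites, had 24 of 32 members with a higher mean (median 0.14). Those with the smallest p were Taf9 (0.40, SE 0.19), Cdk7 (0.46, SE 0.23) and Gtf2a2 (0.37, SE 0.19), and only Gtf2a2 among these 3 was separate between groups, at 2723 ± 720 in 11B3-deleted and 2058 ± 51.5 in p53-loss-only libraries (SD, n = 4 each). Mediator, the bridge between activators and the polymerase, had 22 of 33 members with a higher mean (median 0.11). Its members with the smallest p were Med11 (-0.84, SE 0.29), a gene beyond the Alox12 end of the interval, Cdk8 (0.38, SE 0.17) and Med7 (0.63, SE 0.29). Elongation factors had 18 of 25 tested members with a higher mean (median 0.13), with Ell2 at 1.11 (SE 0.54), the P-TEFb inhibitor Hexim1 at -0.54 (SE 0.27) and Cdc73 at 0.32 (SE 0.17). Ell2 stood at 1445 ± 1434 in 11B3-deleted and 493 ± 68.0 in p53-loss-only libraries (SD, n = 4 each), and 11B3-deleted replicate 1 alone was at 3573. Kinases, phosphatases and other factors linked to the Rpb1 tail had 8 of 13 members with a higher mean (median 0.07). Those with the smallest p were Cdk12 at 0.31 (SE 0.16), Ccnk at 0.29 (SE 0.17) and the phosphatase Ssu72 at -0.24 (SE 0.15). Factors that help assemble the polymerase had 13 of 14 members with a higher mean (median 0.08), with Tti2 at 0.41 (SE 0.19), Slc7a6os at 0.30 (SE 0.15) and C80913 at 0.20 (SE 0.22). Among the named genes, Cdk12, Tti2 and Slc7a6os were also separate between groups with higher 11B3-deleted values, and Med11 with lower ones. With unnamed members counted, 2 Mediator genes and 2 general transcription factors, Gtf2a2 included, were separate with higher 11B3-deleted values. Over all genes tested, 0.913% were separate with higher and 1.23% with lower 11B3-deleted values.

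**Figure D5:**
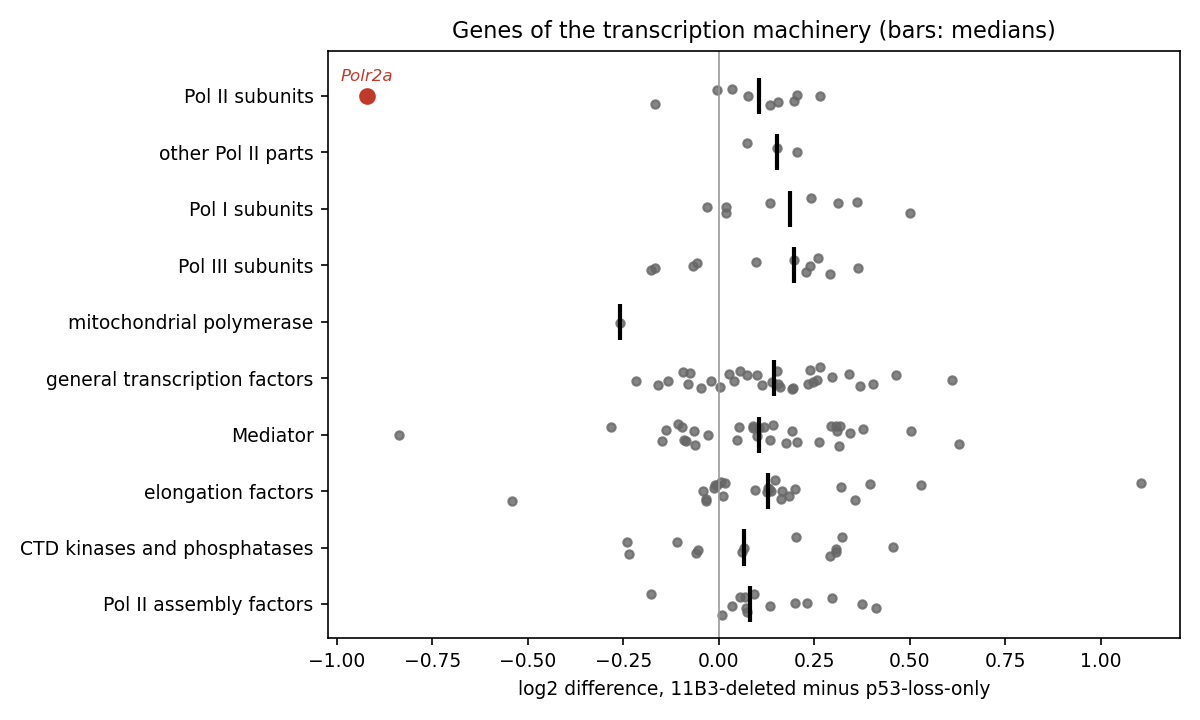
Log2 difference between the 4 11B3-deleted and 4 p53-loss-only libraries (x axis) for each tested gene (points) of the subunit list and the 9 related lists, with list medians as bars. Polr2a, in red, lies at -0.92, and the medians of the lists with more than 1 gene lie between 0.07 and 0.20.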

How the data were processed

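Total RNA of 8 leukaemia libraries, 4 per genotype, was sequenced by the authors. STAR, HTSeq, DESeq and mm9 are named, with no role or version, per the submitters' processing notes. The deposited tables hold 1 signal value per gene for 18860 genes. Subtracting 1 and multiplying by a factor found for each library turned 100% of the deposited values into whole reads, within a tolerance of 0.02, so the values are size-factor-scaled reads plus 1. Reads recovered in this way totalled 30591456 to 35719495 per 11B3-deleted library and 30502718 to 33365364 per p53-loss-only library. On the recovered reads edgeR called 1 gene. The use of strand in counting is unknown here. Another gene overlaps the annotated span, introns included, of 6 of the 10 members in GENCODE M21 (GRCm38). These are Polr2b, Polr2c, Polr2f, Polr2h, Polr2i and Polr2j. Whether their counts include reads of the other gene or lack some of their own was not tested. Size-factor scaling cannot show a change in total RNA per cell.

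Since the values are not counts, limma 3.58.1 (R 4.3.3) with a mean-variance trend was run on the log2 of the deposited value, with the authors' added 1 as pseudocount, which understates folds of low genes. Genes at 10 or more in at least 4 libraries were tested (14679), with Benjamini-Hochberg adjustment over all of them at 0.05. Ratios were compared by two-sided exact permutation over 70 arrangements. edgeR 4.0.16 and DESeq2 1.42.0 were run on the recovered reads as alternatives, and the limma, voom, edgeR and DESeq2 fits were tested on simulated data. The members, gene lists and markers were chosen with earlier results of these data known. Named genes are the members, Polr2k, Polr2l and Polr2m, the 3 genes of each related list with the smallest p, the 2 tested neighbours on each side of Polr2a, the genes with the nearest profiles (5 anywhere and 3 on other chromosomes) and the cell type markers, of which 3 are not reported here and were left out of the sums. Symbols were matched by name, and gene order came from GENCODE, which holds 17888 of the identifiers.

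No 2 libraries were alike within counting noise (lowest chi-square over degrees of freedom 97.5), so none was treated as a repeat deposit of another. The design had no block; its effect and the other alternatives stand in the closing section.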

Additional observations from a re-analysis of the deposited data

Results flagged for a closer look

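Among the named values other than cell type markers, 98 groups of 4 values were checked for a single library apart from the other 3. The cell type markers were left out of this check. In 8 of the 98 groups 1 library stood apart by a gap past Dixon's critical value, where chance gives about 1 in 20. In p53-loss-only replicate 4 this held for Polr2b (6292), Polr2f (1492), Polr2m (6274) and the median log2 level of the 9 other subunits (0.21). In 11B3-deleted replicate 1 it held for Polr2k (345.6) and the elongation factor gene Ell2 (3573). In p53-loss-only replicate 3 it held for Taf9 (2174) and Dnajb5 (707.2). Polr2a had no such library in either group.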

How the results depend on the processing

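Polr2a stayed lower under every alternative run, from -0.81 to -1.05 on the log2 scale over the libraries left out. It passed with DESeq2 (-0.90, adjusted p = 0.00452) and with no other setting (adjusted p 0.296 or more). The 9 other subunits had 0 calls in each fit. Their median log2 difference ran from -0.019 to 0.23 over the libraries left out, falling below 0 without 11B3-deleted replicate 1. No gene of the related lists was called in any fit. The number of ratios called ran from 0 to 7 over the libraries left out. With the replicate block it was 0, where 4 pairs allow no p below 0.125; the numbers are not shown to pair the libraries (same-number correlations of deviations -0.03, -0.22, -0.41 and -0.24), and Polr2a had an adjusted p of 0.9995 under the block, which in a balanced design cannot move the difference. Signs near 0 turned: Polr2i was 0.0046 with DESeq2 and 0.0037 with limma voom and ran from -0.060 to 0.076 over the libraries left out, Polr2f from -0.066 to 0.21, Polr2g from -0.056 to 0.086, Polr2h from -0.033 to 0.53 and Polr2k from -0.063 to 0.31. The cause was not tested. Each member had 368 reads or more in every library.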
